A study of Saccharomyces cerevisiae with 23 samples.

Results

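SUN4 (YNL066W) and SIM1 (YIL123W) are the genes of the SUN family of yeast cell wall proteins that the tables of spliced and unspliced RNA list, each with 1 intron of the 284 measured. They were chosen by name and family with earlier results of these data known, including their premature shares and their change by 48 h, so every value of both genes below is a description and carries no test. The study set Saccharomyces cerevisiae of BY background with mutated MUD1 or deleted NAM8 beside wild type, in log phase and in stationary phase at 48 h, all in minimal medium with 2% D-glucose. The products of MUD1 and NAM8 belong to the U1 particle, which recognises the 5' splice site. There were 23 libraries in 8 groups, namely wild-type sets WTa and WTb, mud1D and nam8D, each in log phase and at 48 h, with 3 libraries per group except WTa in log phase with 2. Pooling both wild-type sets gave 5 log-phase libraries and 6 from 48 h. No label states whether replicates came from separate cultures, so p-values measure only the spread between these libraries, which may be technical.

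The SUN family is a fungal family of secreted proteins with a conserved C-terminal domain. Its yeast members are linked to the cell wall and to the septum that divides mother and daughter cells. SUN4 encodes a wall protein related to glucanases that is found at birth scars, and SIM1 encodes a putative glucosidase of the wall. They are paralogues from the whole-genome duplication. The other yeast members, UTH1 and NCA3, were not among the introns listed. Growing cells build new wall with every bud, while cells in stationary phase divide rarely.

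Both genes lie on the plus strand in build R64, the coding region of SUN4 at chrXIV:501515-502777 and that of SIM1 at chrIX:128151-129581. RefSeq annotates each with 1 exon, so the annotation places no intron in either, and 23 of the 274 genes measured were annotated in that way. The letters in front of each start codon were therefore searched for the yeast 5' splice site consensus GTATGT, its variant GTAAGT and the branch point consensus TACTAAC, and the windows below show what was found. Capitals mark the motif, the first TAG or CAG after the branch motif, or the start codon.
SUN4, 5' splice site motif, chrXIV:501149-501170: tacaagtcGTATGTttaattta
SIM1, 5' splice site motif, chrIX:127654-127675: tatttttaGTAAGTtatttacc
SUN4, branch motif, chrXIV:501468-501490: attttattTACTAACccatccca
SIM1, branch motif, chrIX:128106-128128: aaacacttTACTAACtaatatcc
SUN4, TAG after the branch motif up to the start codon, chrXIV:501491-501517: aatttatttTAGtaatttgataaaatg
SIM1, CAG after the branch motif up to the start codon, chrIX:128137-128153: atttttttgCAGaaatg
SUN4, first 60 bases of the coding region, chrXIV:501515-501574: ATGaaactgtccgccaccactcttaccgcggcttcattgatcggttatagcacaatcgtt
SIM1, first 60 bases of the coding region, chrIX:128151-128210: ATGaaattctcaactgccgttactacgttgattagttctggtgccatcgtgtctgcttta

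TACTAAC began 39 bases before the start codon of SUN4 and 37 bases before that of SIM1. On the coding strand, 34 of 6007 nuclear genes, or 0.566%, held TACTAAC in the 60 bases before the start codon (0.949% on either strand), and so did 14 of the 23 measured genes annotated with 1 exon. GTATGT began 358 bases before the start codon of SUN4 and was absent from the 600 bases before that of SIM1. GTAAGT began 489 bases before the start codon of SIM1 and was absent from that window of SUN4. Windows of 600 bases on the coding strand held GTATGT in 13.7% and GTAAGT in 11.4% of 6005 genes (28.4% and 22.4% on either strand). Of the 23 measured genes annotated with 1 exon, 19 held GTATGT and 2 held GTAAGT on the coding strand. The motifs did not overlap each other. A match describes the letters only, and which sites are used was not tested.

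The coding regions are 1263 bases for SUN4 and 1431 for SIM1, and they were identical at 908 of 1233 aligned bases, or 73.6%. Their longest identical run in that alignment was 20 bases. The first 60 coding bases printed above were identical at 22 positions without gaps. The predicted proteins of 420 and 476 residues were 73.2% identical over 410 aligned residues, and 84% identical over the last 200. The sources used here do not give how reads were assigned to either copy.

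In the assay, multiplexed primer extension sequencing, a pool of primers next to selected introns primes the cDNA, and each read shows whether its RNA was spliced (mature) or still held the intron (premature). The premature share is the percentage of an intron's counts that were premature. Library totals ran from 3343811 to 12068685 counts. The WTa libraries listed 271 to 273 introns and the others 277 to 284, and the titles do not state how WTa and WTb differ. Of the 284 introns, 265 were listed in all 23 libraries with a mean of at least 20 counts, SUN4 and SIM1 among them. As a check of the labels, MUD1 had 1 count in all mud1D libraries together and between 1328 and 5543 mature counts in each of the other 17. NAM8 has no intron in the tables, so its loss was not checked. SUN4 had between 3375 and 5305 counts per library in log phase but only 136 to 268 at 48 h, of which 5 to 37 were premature. SIM1 had between 1678 and 2621 counts in log phase and between 84 and 597 at 48 h, of which 18 to 246 were premature. Its lowest counts at 48 h were those of the mutants. Intervals printed below are exact 95% Clopper-Pearson intervals and cover counting error only.

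The 2 paralogues were spliced to very different extents. Almost all SUN4 RNA was spliced in log phase, whereas about as much SIM1 RNA was unspliced as spliced. By 48 h the gap had narrowed from both sides, with a higher premature share of SUN4 and a lower one of SIM1.

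In log phase the SUN4 premature share was 1.21% and 0.941% in the WTa libraries and 1.18%, 1.50% and 1.46% in those of WTb. At 48 h it was 9.56%, 6.47% and 3.05% in WTa and 13.6%, 6.34% and 7.72% in WTb. Every wild-type library at 48 h lay above every one in log phase, as was so for 36.2% of the 265 introns. The lowest of these, WTa replicate 3 at 48 h, rested on 5 premature counts and had an interval of 0.997% to 6.97%.

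In mud1D the SUN4 shares were 1.28%, 1.63% and 2.05% in log phase and 7.64%, 10.3% and 6.38% at 48 h. In nam8D the shares were 2.99%, 2.96% and 2.47% in log phase and 15.2%, 13.1% and 22.8% at 48 h. In both mutants all libraries at 48 h exceeded those in log phase, as they did for 65.3% of introns in mud1D and 72.8% in nam8D. The log2 change of the SUN4 premature to mature ratio at 48 h was 2.70 ± 0.29 (SE) in wild type (2.60 in WTa alone and 2.81 in WTb alone), 2.39 ± 0.40 in mud1D and 2.80 ± 0.27 in nam8D, where the medians over all introns were 0.29, 1.08 and 1.10. From the largest increase down, SUN4 stood at place 5 of 265 in wild type, 48 in mud1D and 20 in nam8D. After centring, in which the median intron of a library is set to 0, the changes were 2.415 in wild type, 1.67 in mud1D and 1.70 in nam8D.

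SIM1 had premature shares of 54.1% and 53.0% in WTa and of 46.3%, 44.4% and 45.3% in WTb in log phase. The WTa shares lay above those of WTb, as in 28.7% of introns. At 48 h the shares were 46.0%, 37.2% and 39.8% in WTa and 34.9%, 41.2% and 42.9% in WTb. Over both sets the 48 h libraries overlapped with those of log phase. The log2 ratio change in wild type was -0.53 ± 0.11 (SE), with -0.73 in WTa alone and -0.33 in WTb alone.

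The mutants differed more between conditions at SIM1 than wild type did. In mud1D the SIM1 share was 54.5%, 51.8% and 54.5% in log phase against 26.3%, 21.4% and 19.6% at 48 h. In nam8D it was 49.8%, 48.9% and 49.5% in log phase against 24.2%, 34.3% and 36.5% at 48 h. All 48 h libraries lay below those of log phase in each mutant, as was so for 17% of introns in mud1D and 10.2% in nam8D. The log2 ratio change was -1.96 ± 0.22 (SE) in mud1D and -1.10 ± 0.20 in nam8D. SIM1 stood at place 3 of 265 from the largest decrease in mud1D and at place 7 in nam8D, but at place 55 in wild type. Without nam8D replicate 1 at 48 h the nam8D change was -0.84. With centred libraries the SIM1 changes were -0.81 in wild type, -2.75 in mud1D and -2.19 in nam8D.

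**Figure D1:**
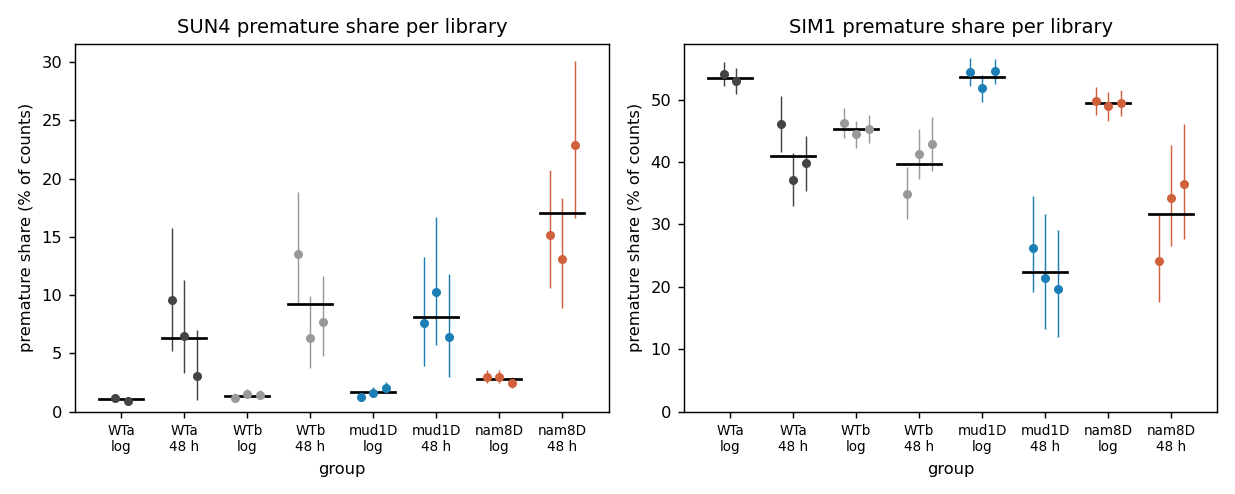
Premature share (percent of an intron's counts) of SUN4 and SIM1 in each of the 23 libraries by group, with exact 95% intervals for counting error as vertical lines and group means as horizontal bars. SUN4 lies between 0.941% and 2.99% in log phase and between 3.05% and 22.8% at 48 h, while SIM1 has its lowest group mean, 22.4%, in mud1D at 48 h, where the libraries overlap with those of nam8D.

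**Figure D2:**
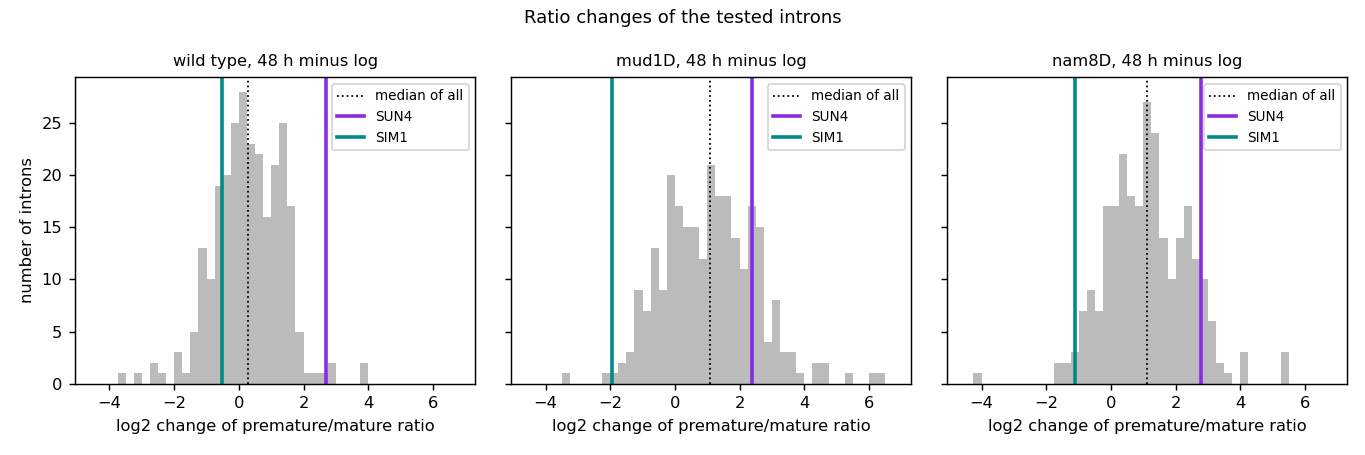
Number of introns by log2 change of the premature to mature ratio from log phase to 48 h in wild type, mud1D and nam8D for the 265 tested introns, with SUN4, SIM1 and the median of all introns as vertical lines. SUN4 lies above and SIM1 below the median in each genotype, and in the mutants the bulk of introns sits further right while SIM1 sits further left.

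The order of the 8 group means of SUN4 was WTa log at 1.07%, WTb log at 1.38%, mud1D log at 1.65%, nam8D log at 2.81%, WTa 48 h at 6.36%, mud1D 48 h at 8.11%, WTb 48 h at 9.21% and nam8D 48 h at 17.0%. Neighbours in this order overlapped except nam8D in log phase, which was apart from mud1D in log phase below it and, narrowly, from WTa at 48 h above it. For SIM1 the order from the top was mud1D log at 53.6%, WTa log at 53.5%, nam8D log at 49.4%, WTb log at 45.3%, WTa 48 h at 41.0%, WTb 48 h at 39.7%, nam8D 48 h at 31.7% and mud1D 48 h at 22.4%. In that order only nam8D in log phase was apart from both its neighbours, and the others overlapped with the next. The median intron's share in these groups ran from 4.01% in WTa log to 8.99% in nam8D at 48 h, so SIM1 was above it throughout.

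The ratio can move through either product, so each was set against the library total as CPM, in which an intron's counts are scaled to the same sum of mature and premature counts in every library. These levels are relative to the other primed targets, and primers may differ in efficiency, so CPM was not compared between the genes. In bulk RNA, fewer cells that carry an RNA and less of it in each cell cannot be told apart.

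Spliced SUN4 RNA was far lower at 48 h in every genotype. In log phase its mature level was 434 and 452 CPM in WTa and 477, 501 and 598 CPM in WTb, and at 48 h it was 25.6, 29.9 and 26.9 CPM in WTa and 39.3, 55.1 and 54.7 CPM in WTb. The mud1D libraries had 518, 443 and 532 CPM in log phase and 39.2, 36.5 and 39.1 CPM at 48 h. The nam8D libraries had 489, 489 and 641 CPM in log phase and 39.8, 41.5 and 31.8 CPM at 48 h. The groups of the 2 conditions were far apart in all genotypes. Groups that did not overlap in this direction were also seen for 23% of introns in wild type, 35.8% in mud1D and 33.2% in nam8D.

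Mature SUN4 was 13.1-fold lower at 48 h in wild type, 12.9-fold in mud1D and 14.3-fold in nam8D, and this was the largest decrease of the mature product among the 265 introns in each genotype. On the log2 scale, with 0.1 CPM added before the log, the changes were -3.71 ± 0.10 (SE), -3.69 ± 0.09 and -3.83 ± 0.18, against medians of 0.41, 0.25 and 0.23 over all introns.

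Unspliced SUN4 RNA was also lower at 48 h, but by less. Its premature level was 5.30 and 4.29 CPM in WTa and 5.67, 7.61 and 8.87 CPM in WTb in log phase. At 48 h it was 2.71, 2.07 and 0.846 CPM in WTa and 6.16, 3.74 and 4.58 CPM in WTb, which overlapped with log phase over both sets. In mud1D it was 6.72, 7.33 and 11.1 CPM in log phase and 3.24, 4.19 and 2.67 CPM at 48 h. In nam8D it was 15.1, 14.9 and 16.2 CPM in log phase and 7.11, 6.25 and 9.42 CPM at 48 h. In the mutants the groups did not overlap, a decrease shared by 1.89% of introns in mud1D and 2.64% in nam8D. The premature level was 2.04-fold lower in wild type, 2.43-fold in mud1D and 2.04-fold in nam8D. The wild-type log2 change was -1.03 ± 0.28 (SE), with -1.44 in WTa alone and -0.61 in WTb alone. The higher SUN4 premature share at 48 h thus went with less of both products.

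For SIM1 the products stood the other way round, with a larger decrease of the unspliced than of the spliced RNA. Mature SIM1 was 99.8 and 117 CPM in WTa and 128, 150 and 159 CPM in WTb in log phase. At 48 h it was 55.0, 60.8 and 50.8 CPM in WTa and 72.8, 77.1 and 68.2 CPM in WTb. In mud1D it went from 126, 134 and 148 CPM to 29.8, 19.7 and 21.9 CPM. In nam8D it went from 140, 143 and 161 CPM to 25.8, 20.5 and 18.6 CPM. No library at 48 h reached the lowest of log phase in any genotype, as in 23% of introns in wild type, 35.8% in mud1D and 33.2% in nam8D. The mutants at 48 h lay below all wild-type libraries at 48 h, as in 33.6% of introns in mud1D and 36.2% in nam8D. Mature SIM1 at 48 h was 1.97-fold lower than in log phase in wild type, 5.76-fold lower in mud1D and 6.86-fold lower in nam8D.

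Premature SIM1 in log phase was 117 and 131 CPM in WTa, 110, 120 and 131 CPM in WTb, 151, 143 and 178 CPM in mud1D and 139, 137 and 158 CPM in nam8D. At 48 h wild type had 46.9, 35.9 and 33.5 CPM in WTa and 39.1, 54.1 and 51.3 CPM in WTb, while mud1D had 10.6, 5.38 and 5.33 CPM and nam8D 8.22, 10.7 and 10.7 CPM. These groups were separate in every genotype, a decrease shared by 1.89% of introns in wild type and in mud1D and by 2.64% in nam8D. The log2 change was -1.51 ± 0.12 (SE) in wild type, -4.52 ± 0.34 in mud1D and -3.87 ± 0.14 in nam8D, against medians over all introns of 0.92, 1.61 and 1.58. That is a level 2.85-fold, 22.9-fold and 14.6-fold lower at 48 h. It was the largest decrease of the premature product among the 265 introns in all 3 comparisons, though SIM1 came at place 2 in WTa alone and in WTb alone.

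Summed over both products, SUN4 was 12.2-fold lower at 48 h in wild type, 12.1-fold in mud1D and 12.2-fold in nam8D. SIM1 was 2.33-fold lower in wild type, 9.63-fold in mud1D and 9.26-fold in nam8D. The paralogues therefore had decreases of similar size in the mutants and of different size in wild type. In the order of decreases over 265 introns SUN4 was at place 1 in each genotype, and SIM1 was at place 11 in wild type and at place 2 in both mutants.

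**Figure D3:**
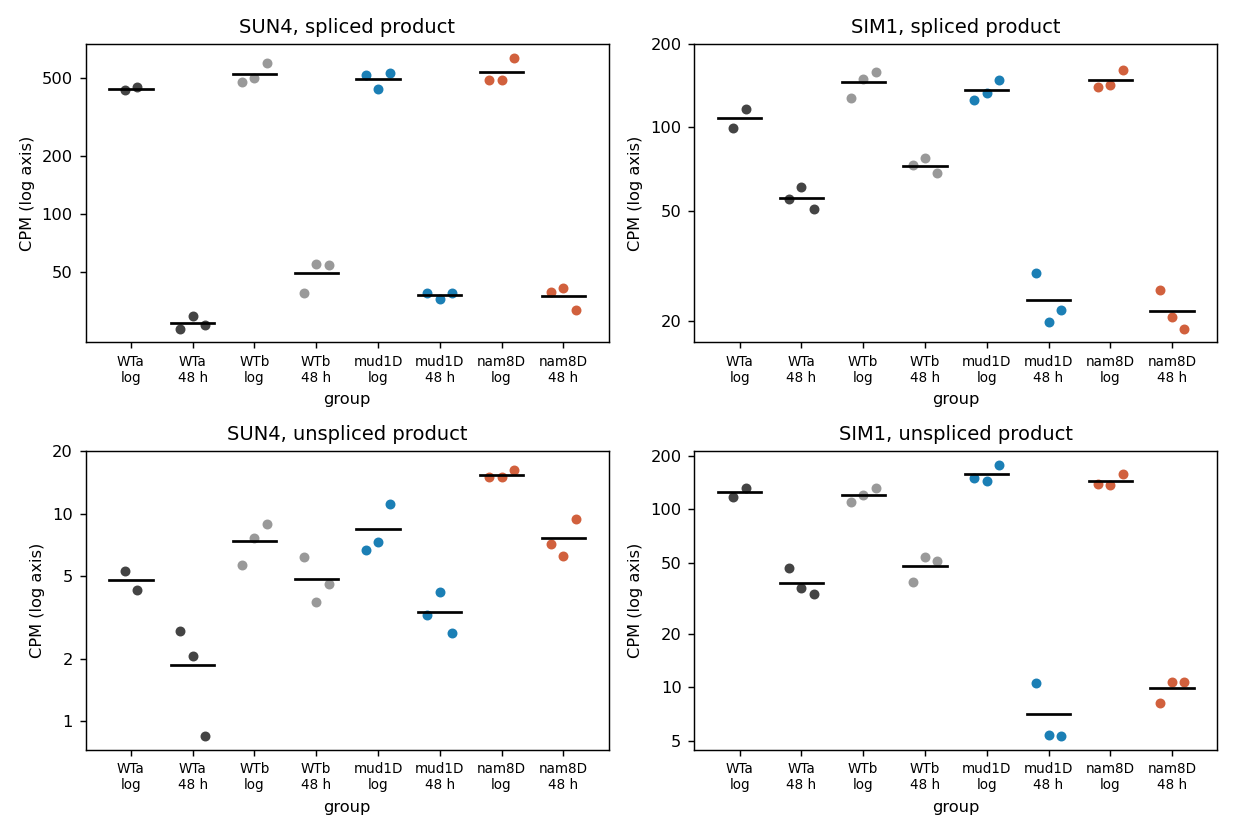
Level of the spliced and unspliced products of SUN4 and SIM1 in CPM (log axis) in each of the 23 libraries by group, with group means as horizontal bars. Spliced SUN4 is above 400 CPM in log phase and below 60 CPM at 48 h in all libraries, and unspliced SIM1 at 48 h is lower in the mutants than in wild type.

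**Figure D4:**
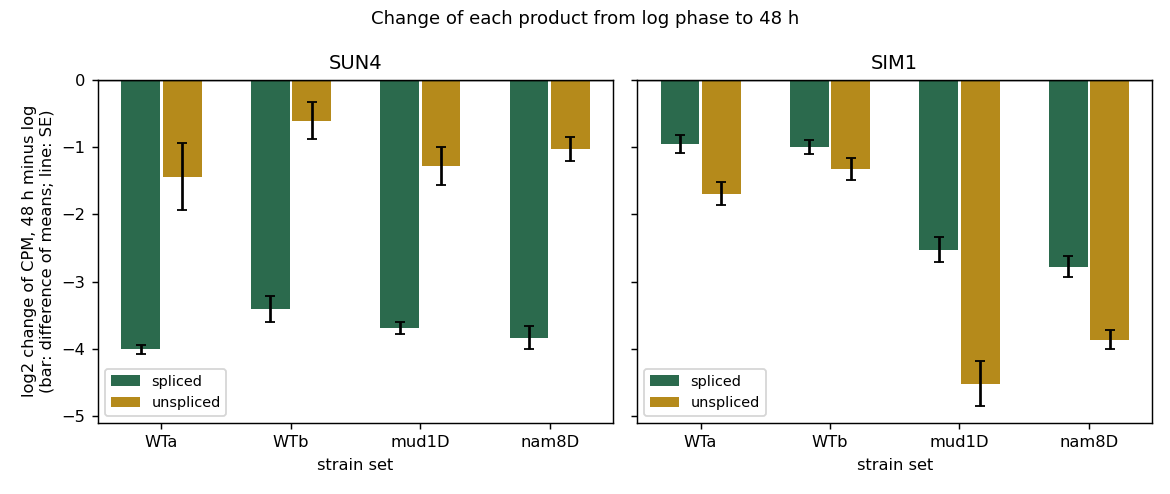
Log2 change of CPM from log phase to 48 h of the spliced and unspliced products of SUN4 and SIM1 in WTa, WTb, mud1D and nam8D, with bars from 0 and lines for the SE of the difference of means. The spliced bar is the longer one for SUN4 and the unspliced bar for SIM1, and the SIM1 bars are longer in the mutants.

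Between genotypes, the mutants share the wild-type libraries as controls, so their differences are given side by side only. In log phase the SUN4 ratio was higher in nam8D than in wild type by a log2 difference of 1.21 ± 0.19 (SE), which put it at place 9 of 265 from the top, with a median over all introns of 0.17. All 3 nam8D libraries exceeded all 5 wild-type libraries in premature share, as in 18.1% of introns. The difference lay in the unspliced product, which was 2.59-fold higher in nam8D (log2 1.37 ± 0.13) and at place 3 of 265, while the mature product differed by a log2 value of 0.15 ± 0.14. In mud1D the SUN4 ratio difference in log phase was 0.44 ± 0.21, against a median of 0.31, and the shares overlapped with those of wild type. It was 0.018 with centred libraries, 0.25 without mud1D replicate 3 in log phase, 0.61 against WTa alone and 0.26 against WTb alone.

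At 48 h the SUN4 ratio was again higher in nam8D than in wild type, by 1.30 ± 0.29 on the log2 scale, but here the median over all introns was 1.01. The SUN4 shares overlapped, while 74.3% of introns had all nam8D libraries above those of wild type. With centred libraries this difference was 0.44. Premature SUN4 was 2.58-fold higher in nam8D at 48 h, and its libraries lay above all 6 of wild type, as in 62.6% of introns. The separation was narrow, with 6.25 CPM (28 counts) in nam8D replicate 2 and 6.16 CPM (29 counts) in WTb replicate 1. The log2 difference of premature SUN4, 1.37 ± 0.31, was 2.08 against WTa alone and 0.65 against WTb alone. In mud1D the SUN4 ratio at 48 h differed from wild type by 0.12 ± 0.37, and by -0.73 with centred libraries. Its shares overlapped with those of wild type, while 79.6% of introns had all mud1D libraries above them. The 48 h change of the SUN4 ratio in mud1D minus that in wild type was -0.31 ± 0.43, and in nam8D it was 0.09 ± 0.34. Both differences were smaller than their errors, while the median intron had 0.72 and 0.81, and with centred libraries the values were -0.74 in mud1D and -0.71 in nam8D.

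SIM1 in log phase differed little between genotypes. The log2 ratio difference from wild type was 0.24 ± 0.12 (SE) in mud1D and 0.00019 ± 0.12 in nam8D. The mud1D value was 0.0031 against WTa alone and 0.48 against WTb alone, and it turned to -0.17 with centred libraries. The nam8D value was -0.24 against WTa alone and 0.24 against WTb alone. Premature SIM1 was above every wild-type library in all 3 mud1D and all 3 nam8D libraries, as in 33.2% and 28.3% of introns, with log2 differences of 0.36 ± 0.11 and 0.24 ± 0.09.

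At 48 h SIM1 differed from wild type in the opposite direction to most introns in both mutants. While 90.6% of introns had a higher ratio in mud1D than in wild type at 48 h and 1.13% a lower one (edgeR quasi-likelihood test, adjusted p under 0.05 after Benjamini-Hochberg), the SIM1 ratio was lower, with a log2 difference of -1.18 ± 0.22 (SE). In nam8D 88.3% of introns were higher and 1.13% lower, and the SIM1 difference was -0.57 ± 0.19. Only 1 intron had a lower value than SIM1 in each of these comparisons. The 3 mud1D shares lay below all 6 of wild type, as in 1.13% of introns, whereas those of nam8D overlapped. Without nam8D replicate 1 at 48 h the nam8D difference was -0.31.

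Both SIM1 products were lower in the mutants at 48 h. Premature SIM1 was 6.27-fold lower in mud1D and 4.33-fold lower in nam8D than in wild type, with log2 differences of -2.65 ± 0.34 and -2.11 ± 0.16, where the median intron had 0.92 and 0.77. All libraries of each mutant lay below those of wild type, as in 0.755% of introns in mud1D and 1.51% in nam8D. No other intron had a larger decrease of the premature product in either comparison. Mature SIM1 was 2.70-fold lower in mud1D and 2.95-fold lower in nam8D, at places 8 and 11 of 265 from the largest decrease. Mature SUN4, by contrast, differed from wild type at 48 h by log2 values of 0.06 ± 0.09 in mud1D and 0.03 ± 0.15 in nam8D. These turned from 0.48 and 0.45 against WTa alone to -0.36 and -0.39 against WTb alone. Premature SUN4 in mud1D differed by 0.21 ± 0.32 at 48 h, with 0.93 against WTa alone and -0.50 against WTb alone.

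The 48 h change of the SIM1 ratio in mud1D minus that in wild type was -1.42 ± 0.25 on the log2 scale, at place 2 of 265 from the bottom. In nam8D it was -0.57 ± 0.23, at place 5, with -0.37 against WTa alone, -0.77 against WTb alone and -0.31 without nam8D replicate 1 at 48 h. The same differences were positive for most introns, since 65.3% were called higher in mud1D and 75.8% in nam8D, against 4.91% and 3.02% called lower.

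Other genes of wall, mannose, GPI anchor and glycan synthesis had 5 introns in the tables, and these were tested in the same fit. This list was chosen with earlier results of these data known, so its calls and p-values are a description. ECM33 encodes a GPI-anchored cell surface protein, and PMI40 makes the mannose 6-phosphate needed for mannosylation. BIG1 is needed for normal levels of beta-1,6-glucan, GPI15 acts in GPI anchor synthesis, and OST5 encodes a subunit of the oligosaccharyltransferase. In wild type at 48 h the premature to mature ratio rose for 2 and fell for 3, while it rose for 51.7% of all introns and fell for 28.7%. For this list, rose, fell, higher and lower refer to that ratio and not to the level of either product. The risers were ECM33, by 1.17 ± 0.14 (SE) on the log2 scale (edgeR adjusted p = 3.5e-09), and PMI40, by 1.28 ± 0.15 (edgeR adjusted p = 9.3e-10). BIG1 (-0.44), GPI15 (-0.35) and OST5 (-0.33) fell.

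In mud1D the ratio rose for 2 of the 5 and fell for 2 at 48 h, against 64.9% and 15.5% of all introns. ECM33 rose by 3.24 ± 0.18 and PMI40 by 2.57 ± 0.20, while BIG1 (-0.32) and GPI15 (-0.67) fell. In nam8D 3 rose and 0 fell, against 70.9% and 9.81%. ECM33 rose by 4.21 ± 0.18, PMI40 by 3.01 ± 0.20 and OST5 by 0.50 ± 0.15. The list's median log2 changes were -0.33 in wild type, 0.20 in mud1D and 0.50 in nam8D, below the medians of all introns. With centred libraries, tested with limma, the list had 2 higher and 3 lower in each of the 3 genotypes. All introns together then had 113 higher and 103 lower in wild type, 133 and 97 in mud1D and 102 and 107 in nam8D, in place of 137 and 76, 172 and 41, and 188 and 26.

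Against wild type in log phase, the ratio was higher for 2 of the 5 and lower for 0 in mud1D (PMI40 and GPI15). Of all introns, 47.9% were higher and 7.92% lower there. In nam8D 2 were higher and 0 lower (ECM33 and GPI15), where 29.4% and 7.17% were. At 48 h 4 of the 5, all but BIG1, were higher and 0 lower in each mutant, while 90.6% of all introns were higher in mud1D and 88.3% in nam8D, so the list's share was no larger than that of all introns. With centred libraries the log-phase counts became 1 higher and 2 lower in mud1D and stayed at 2 higher and 0 lower in nam8D, and those at 48 h became 2 higher and 1 lower in each mutant. The calls over all introns then split into 57 higher and 94 lower in mud1D and 77 and 36 in nam8D in log phase, and into 118 and 59 and 102 and 79 at 48 h.

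The introns whose log2 odds followed each gene most closely over the 8 group means were also looked up. For SUN4 these were in RPS14A (Pearson's r = 0.97), RPS21A (0.97) and RPS19B (0.96), which encode small ribosomal subunit proteins. For SIM1 they were in RPS14B (0.97), another ribosomal protein gene, COI1 (0.82) of the mitochondrial inner membrane and LDS2 (0.77), which acts in spore wall assembly. Between SUN4 and SIM1 the value was -0.80. The 8 points share libraries and depth with all other introns, and these values are a description.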

How the data were processed

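The authors deposited raw mature and premature counts per intron, as the headers and whole values show, in 1 table per strain set with libraries in rows. FastQC, fastp 0.20.0, STAR 2.7.2b and build R64 are named, with no role, in the submitters' processing notes. Nothing used here states how reads were assigned or whether molecular identifiers were used. Total RNA was extracted with hot acid phenol, per the labels. The rows of the mud1D table carry another suffix than the label, so whether MUD1 was deleted was judged only by its counts. Libraries were grouped from their titles. The strain names in the labels recur across genotypes and were not used. Replicates within a group differed by more than counting noise (chi-square at least 12 times its degrees of freedom), so each counted as 1 sample.

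The members, lists and tests were chosen with earlier results of these data known. Ratios were fitted with edgeR 4.0.16 in R 4.3.3 over 265 introns. Each library gave a mature and a premature column, the design held library terms plus group terms on the premature columns, and the script was tested on simulated data. Tests were two-sided, with Benjamini-Hochberg adjustment over all introns and a threshold of 0.05. Wild type is the mean of WTa and WTb. CPM used the library total over all listed introns. Group means of log2 odds used a pseudocount of 0.5. Named introns are SUN4, SIM1, MUD1, the fixed list and the 3 introns most alike to each gene by correlation. Alternatives were DESeq2 1.42.0, limma 3.58.1 on log2 odds with or without centring, a replicate block, WTa or WTb alone, only the groups compared, other count minimums, TMM scaling, a pseudocount of 1 CPM and leaving out each library. Sequences came from the RefSeq copy of R64 with Python 3.11.15 and Biopython 1.88.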

Additional observations from a re-analysis of the deposited data

Results flagged for a closer look

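In the list of wall and glycan genes, 3 of the 5 introns had a more positive ratio change by 48 h in each mutant than in wild type, by the test of the difference itself (edgeR quasi-likelihood test, Benjamini-Hochberg adjusted over 265 introns). The background was high, as 65.3% of introns were called higher in this test in mud1D and 75.8% in nam8D. As the list was chosen with earlier results of these data known, its p-values are a description. For ECM33 the log2 change of the ratio minus that of wild type was 2.08 ± 0.23 (SE) in mud1D (edgeR adjusted p = 2e-09) and 3.05 ± 0.23 in nam8D (edgeR adjusted p = 5.6e-13), with the premature share of all 3 libraries of each mutant at 48 h above all 6 of wild type, as in 79.6% of introns in mud1D and 74.3% in nam8D. For PMI40 it was 1.29 ± 0.24 in mud1D and 1.73 ± 0.24 in nam8D. For OST5 it was 0.53 ± 0.20 in mud1D and 0.83 ± 0.20 in nam8D, where its own change was -0.33 in wild type, 0.20 in mud1D (edgeR adjusted p = 0.25) and 0.50 in nam8D. With centred libraries 2 introns of the list were called higher in each mutant, and 2 were called lower in mud1D and 1 in nam8D.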

How the results depend on the processing

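Centring each library on its median intron moved most ratio values. The 48 h changes became 1.67 (mud1D) and 1.70 (nam8D) for SUN4, beside 2.415 in wild type. For SIM1 they became -0.81 (wild type), -2.75 (mud1D) and -2.19 (nam8D). At 48 h the differences from wild type became -0.73 (mud1D) and 0.44 (nam8D) for SUN4 and -2.11 and -1.45 for SIM1. The mutant change minus the wild-type change became -0.71 for SUN4 in nam8D, and -1.94 (mud1D) and -1.38 (nam8D) for SIM1. Of the values over 2 SE from 0, only the SIM1 difference of mud1D in log phase turned, to -0.17. The cause was not tested. The introns called in the nam8D minus wild-type change went from 209 to 110, or 49 higher and 61 lower in place of 201 and 8, and those in the mud1D minus wild-type change split into 106 and 48 in place of 173 and 13. The list introns called in nam8D at 48 h went from 3 to 5.

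TMM scaling shifted all 48 h changes of level by -0.26 in wild type and nam8D and by -0.31 in mud1D on the log2 scale. Mature SUN4 then had -3.97, -4.01 and -4.09 in wild type, mud1D and nam8D, mature SIM1 -1.24, -2.84 and -3.04, and premature SIM1 in mud1D -4.83. With WTa or WTb alone as wild type, the 48 h change was -4.01 or -3.41 for mature SUN4 and -1.44 or -0.61 for premature SUN4. Against WTa or WTb alone at 48 h, mature SUN4 differed by 0.48 or -0.36 in mud1D and by 0.45 or -0.39 in nam8D. Premature SUN4 differed by 0.93 or -0.50 in mud1D and by 2.08 or 0.65 in nam8D. Mature SIM1 differed by -1.24 or -1.63 in mud1D and by -1.37 or -1.76 in nam8D, and in log phase by 0.33 or -0.10 in mud1D and by 0.45 or 0.027 in nam8D.

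Leaving out 1 library at a time kept the SUN4 ratio change at 48 h between 2.51 and 2.89 in wild type, 2.17 and 2.58 in mud1D and 2.52 and 3.0 in nam8D. For SIM1 it ran from -0.61 to -0.46 in wild type, from -2.16 to -1.84 in mud1D and from -1.25 to -0.84 in nam8D. The SIM1 difference of nam8D at 48 h ran from -0.72 to -0.31, and so did its change minus that of wild type. Premature SIM1 in mud1D ran from -4.84 to -4.35 for the 48 h change and from -2.97 to -2.48 against wild type at 48 h.

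Over all groups together, the replicate numbers showed no pairing of the libraries. The correlation of same-numbered libraries' deviations ran from -0.31 to 0.25 with a median of 0.014, and 5 of 23 libraries correlated best with their own number. Log-phase and 48 h libraries of the same strain set were not looked at alone, so pairing within a set was not tested. With the replicate block the SUN4 ratio changes were 2.70, 2.39 and 2.80, those of SIM1 -0.54, -1.96 and -1.10, and no other value moved by more than the spread between replicates. DESeq2, limma without centring, only the groups compared and a pseudocount of 1 CPM moved no value of either gene by that much, and no count of calls moved by over 1.5 times under the other settings. The annotation shows no intron wholly before a start codon among the measured genes, so that class was not counted. Because it places no intron at all in the 23 measured genes annotated with 1 exon, this does not show that the class is absent. At 48 h the premature counts of SUN4, 5 to 37 per library, limit its precision. Low counts also limit SIM1 in the mutants at 48 h, with 36, 18 and 18 premature counts in mud1D and 37, 48 and 42 in nam8D.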

Other observations

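Spliced levels of the other wall and glycan genes at 48 h lay on both sides of their log-phase levels, unlike those of SUN4 and SIM1, which were lower. Mature BIG1 was 293 CPM ± 17.8 (SD, n = 2) in WTa and 339 CPM ± 13.8 (SD, n = 3) in WTb in log phase, and 1219 CPM ± 42.2 and 1339 CPM ± 16.9 (SD, n = 3 each) at 48 h. In mud1D it was 384 CPM in log phase and 2037 CPM at 48 h, and in nam8D 360 CPM and 1590 CPM. Mature GPI15 and OST5 were also higher at 48 h, for example 56.2 and 98.6 CPM for GPI15 in mud1D. Mature PMI40 was lower at 48 h, at 166 CPM against 476 CPM in mud1D and 147 CPM against 538 CPM in nam8D. Mature ECM33 was lower at 48 h in nam8D, at 166 CPM against 273 CPM, while WTa, WTb and mud1D had higher means at 48 h. For ECM33 the unspliced product stood out, with 86.3 CPM ± 17.6 in log phase and 989 CPM ± 258 (SD, n = 3 each) at 48 h in nam8D. In mud1D its unspliced level was 52.95 CPM in log phase and 577 CPM at 48 h, and in WTa and WTb it was also higher at 48 h. These levels were not tested.

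The other 21 introns in genes annotated with 1 exon, a class chosen after values were seen, had median log2 ratio changes at 48 h of 0.42 in wild type, 1.42 in mud1D and 1.17 in nam8D, against 0.29, 1.08 and 1.10 over all introns. Of these 21, 15 were above 0 in wild type, 19 in mud1D and 17 in nam8D. How many of all introns lay above 0 was not counted, so these counts do not set the class apart.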
